A study of Mus musculus with 9 samples.

Results

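The genes described here are 10 members of the canonical Wnt pathway, chosen by symbol from the 21899 genes of the deposited table. They are the Tcf/Lef transcription factor genes Tcf7, Tcf7l1, Tcf7l2 and Lef1, the coactivator gene Ctnnb1, and the feedback genes Axin2, Nkd1, Notum, Znrf3 and Rnf43. Poly(A) RNA was sequenced from cultured mouse brain tumor stem cells in 9 libraries, 3 per group. In the sgRNA1 KO and sgRNA2 KO groups, Gpd1, the cytosolic glycerol-3-phosphate dehydrogenase gene, was targeted by CRISPR/Cas9 from the lentiCRISPv2 vector with 1 of 2 guides, followed by puromycin selection and expansion of colonies from single cells. The control group held brain tumor stem cells with no knock-out in their label, and whether these came from picked colonies or received puromycin is not given. Each KO library may therefore carry the features of a single clone, and no label says that libraries of a group came from separate cultures, so p-values measure the spread between these libraries.

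In the canonical Wnt pathway, a Wnt ligand bound to a Frizzled receptor and its Lrp5 or Lrp6 coreceptor stops the breakdown of beta-catenin, which then enters the nucleus and activates genes bound by Tcf/Lef factors. Without beta-catenin these factors can repress the same genes, and Tcf7l1 is known mostly as a repressor. Several target genes encode inhibitors of the pathway, so that Axin2, Nkd1, Notum, Znrf3 and Rnf43 act as negative feedback and are widely used as readouts. In the brain the pathway is known for roles in neural progenitor growth, in blood vessel barrier formation and, through Tcf7l2, in oligodendrocyte maturation.

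The library totals of normalized read counts lay between 39781901 and 42975283. Gpd1 stood at 12.8%, 5.21% and 82.6% of the control mean in sgRNA1 KO replicates 1 to 3 and at 41.8%, 41.8% and 26.9% in sgRNA2 KO replicates 1 to 3, below all controls in each. The labels report that loss of the protein and the gene edit were checked in the colonies, which an RNA level does not show. Of the KO libraries, sgRNA1 KO replicate 3 and sgRNA2 KO replicate 1 lay nearest the controls over all tested genes (Pearson r across genes from 0.962 to 0.972, against 0.909 to 0.945 for the other 4 KO libraries). Values are also given without these 2 libraries where that changed a result. Since they were picked for their likeness to the controls, leaving them out favours larger differences, and such values are a description and no support for a change. Of the stem cell and glioma markers used to check the cell type (Nes, Sox2, Olig2, Prom1, Vim, Fabp7, Msi1, Gfap and Sox9), all 9 were measured and passed the filter on low values. Their summed level was 228193 to 344245 in KO libraries and 343410 to 385947 in controls. Vim and Fabp7, with the highest means, weigh most in this sum, and single markers went different ways. In limma Nes (log2 -1.36, adjusted p = 0.00683) and Vim (log2 -0.93, adjusted p = 0.00276) were lower in KO. Sox2 was higher (log2 0.94, adjusted p = 0.00851), and the rest did not pass an adjusted p of 0.05. Markers of T cells, which use Tcf7 and Lef1, summed to 2 to 7 in KO libraries and 1 to 5 in controls over the 2 of 6 markers analysed here, and those of microglia to 34 to 62 and 29 to 34 over 4 of 7.

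Genes were tested where their mean over the 9 libraries was at least 10, which 9 of the 10 members met. Lef1 did not, and Notum, with a mean of 10.3, passed only through its KO values, so that its difference is given as a description. In KO against control, 3 of the 9 members passed an adjusted p of 0.05 in limma, Nkd1 and Notum upward and Tcf7 downward. Apart from Notum, the members that passed were thus Nkd1 and Tcf7. Of all 15827 genes tested, 39.3% passed, 19.1% upward and 20.2% downward, so the share of members that passed is near the background. These 3 members were also the ones with no overlap of KO and control values, as 44.8% of all tested genes had none. The median log2 fold change was 0.48 over the 9 members tested and -0.01 over all tested genes.

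**Figure D1:**
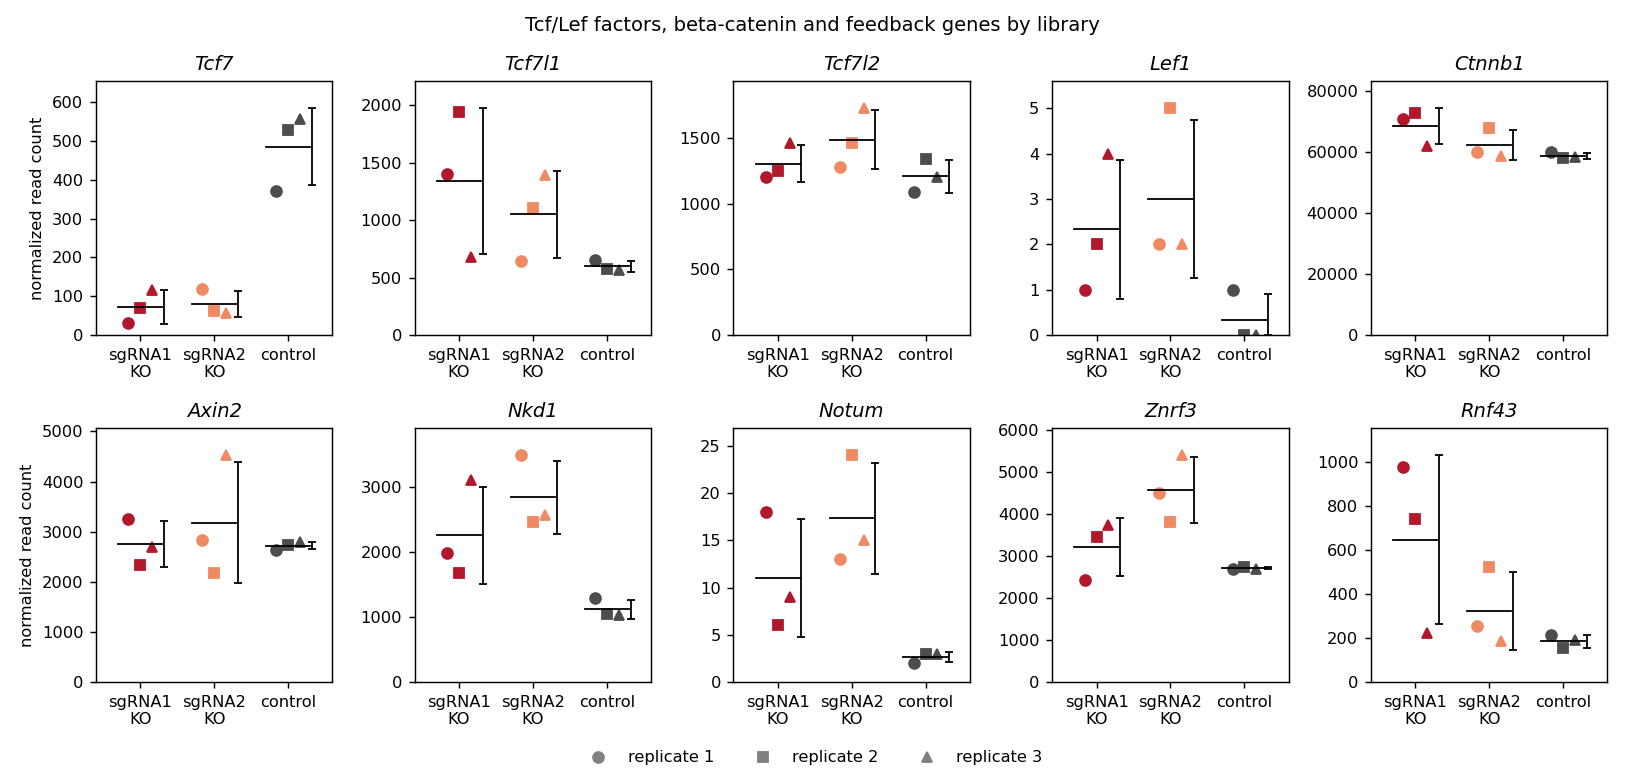
Normalized read count of each of the 10 genes (vertical axes, from 0) in sgRNA1 KO, sgRNA2 KO and control, with 1 point per library, the symbol giving the replicate number, horizontal bars the mean and vertical bars the SD (n = 3). Tcf7 stood at 30 to 119 in KO libraries and 372 to 556 in controls, while Nkd1 stood at 1685 to 3493 and 1028 to 1295.

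Tcf7, which encodes the factor TCF-1, fell in every KO library. It had normalized read counts of 30, 70 and 116 in sgRNA1 KO replicates 1, 2 and 3 and of 119, 63 and 58 in sgRNA2 KO, against 372, 527 and 556 in control. The highest KO library was thus below the lowest control, and the KO libraries stood at 6.19% to 24.5% of the control mean. The means were 76.0 ± 34.9 in KO (SD, n = 6) and 485 ± 98.9 in control (SD, n = 3), with a log2 fold change of -2.78 (SE 0.40, adjusted p = 0.00154 in limma). The exact permutation test over the 84 divisions into 6 and 3 gave a two-sided p of 0.0238, the smallest it can give. The 2 libraries nearest the controls had the highest Tcf7 of their guide, and the drop was there in both. Tcf7 lies on chromosome 11 of mm10 from 52252371 to 52283014, on the minus strand.

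The summed levels of endothelial and of pericyte or fibroblast markers were also lower in all KO libraries. Endothelial markers (Pecam1, Kdr, Tie1, Tek and Flt1 of a list of 7) summed to 96 to 262 in KO libraries and 588 to 643 in controls, with 2 of 4 tested members lower (Flt1 and Kdr). Flt1 stood at 14 to 66 in KO libraries and 445 to 456 in controls, whereas Tek stood at 18 to 123 and 35 to 59, and the groups overlapped for Tek, Pecam1 and Tie1. Pericyte and fibroblast markers, 4 of 7 analysed here, summed to 20 to 39 and 100 to 118, with 1 of 2 tested members lower, Rgs5, at 1 to 5 in KO libraries and 54 to 75 in controls. Of all tested genes, 20.2% passed downward. Flt1 and Kdr made up most of the endothelial sum in controls. There Pecam1 stood at 5 to 13, Tie1 at 0 to 1 and Pdgfrb at 1 to 4, and Cldn5 and Cdh5 had no values. Whether endothelial cells or pericytes were in the cultures was not tested. The part of these markers in the fall of Tcf7 was not tested, and in bulk RNA fewer cells of a type and less RNA per cell cannot be told apart.

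Tcf7l1, which encodes TCF-3, was high in 4 of the 6 KO libraries and close to the controls in the remaining 2. It had 1403, 1939 and 680 normalized read counts in the sgRNA1 KO libraries, with 646, 1107 and 1396 in the sgRNA2 KO libraries, against 656, 574 and 565 in control. The low KO values were those of the 2 libraries nearest the controls, and 1 of them (646) was within the control range. The means were 1195 ± 492 in KO (SD, n = 6) and 598 ± 50.1 in control (SD, n = 3). Limma put the log2 fold change at 0.89 with an SE of 0.33 and an adjusted p of 0.0563, which did not pass. Without adjustment, p was 0.0232 in limma and 0.0476 in the exact permutation test. Without sgRNA1 KO replicate 3 the adjusted p in limma was 0.0257, without sgRNA2 KO replicate 1 it was 0.0213, and without both the log2 fold change was 1.26 with an adjusted p of 0.00164. These libraries hold the lowest Tcf7l1 values of the KO groups, so a larger difference without them follows from the choice. Tcf7l1 lies on chromosome 6 from 72626378 to 72789254 of mm10, and its exons overlap those of Gm15401 on the opposite strand, which had at most 6 counts in any library.

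Tcf7l2, the TCF-4 gene, had 1198, 1250 and 1463 normalized read counts in the sgRNA1 KO libraries, with 1276, 1459 and 1724 in the sgRNA2 KO libraries, against 1086, 1338 and 1201 in control. The groups overlapped, and limma put the log2 fold change at 0.20 with an SE of 0.14. Its adjusted p of 0.269 did not pass (exact permutation p = 0.19, not adjusted). Oligodendrocyte lineage markers, among which Tcf7l2 is often counted, summed to 16771 to 38035 in KO libraries and 8798 to 10422 in controls, and 4 of 6 tested members rose. Tcf7l2 lies on chromosome 19 of mm10 from 55741820 to 55933654. The highest sum of those markers was in sgRNA1 KO replicate 1, the KO library with the lowest Tcf7l2. Lef1, on chromosome 3 from 131110471 to 131224356, had 1, 2 and 4 counts in the sgRNA1 KO libraries, with 2, 5 and 2 in the sgRNA2 KO libraries, against 1, 0 and 0 in control. These values are too low for a fold change, since the mean of both groups was under the floor of 3 counts per library.

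Levels of the 4 factor genes were compared per kb of exon, because their annotated exons differ in length (2625 bases for Tcf7, 3924 for Tcf7l1, 8775 for Tcf7l2 and 8788 for Lef1). The summed Tcf/Lef level per kb was 493 ± 116 in KO (SD, n = 6) and 475 ± 36.7 in control (SD, n = 3), and the groups overlapped. Its makeup differed between the groups. Tcf7 held 6.57% ± 4.41 of the sum in KO libraries (2.26% to 12.7%) and 38.6% ± 5.30 in controls (32.7% to 43.0%). Tcf7l1 held 59.7% ± 12.2 in KO libraries (45.1% to 74.5%) and 32.4% ± 5.41 in controls (29.2% to 38.6%). Per kb, neither of these shares overlapped between the groups. Without the division by length, the Tcf7l1 share of sgRNA1 KO replicate 3 was below that of control replicate 1. The shares are parts of the same sum, so a lower Tcf7 by itself raises the other shares. Tcf7l1 had 680 and 646 counts in the 2 KO libraries nearest the controls, against 565 to 656 in control. Tcf7l2 held 33.7% ± 8.26 in KO libraries (21.5% to 43.3%) and 29.0% ± 1.41 in controls (27.8% to 30.5%), and Lef1 at most 0.12% in any library. Per kb, Tcf7 was the most abundant factor in 2 of the 3 controls, and Tcf7l1 in all KO libraries. This order turned with the division by length. Without it Tcf7l2 was highest in 4 of the 6 KO libraries and in all 3 controls, and held 53.4% of the sum in KO and 52.6% in control, while Tcf7 held 3.08% in KO and 21.0% in control. In the 2 KO libraries nearest the controls, Tcf7l1 and Tcf7l2 were almost equal, at 45.1% and 43.3% in sgRNA1 KO replicate 3 and 46.3% and 40.9% in sgRNA2 KO replicate 1. Exon length over all isoforms can overstate the transcript that is used, so the shares depend on the annotation.

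**Figure D2:**
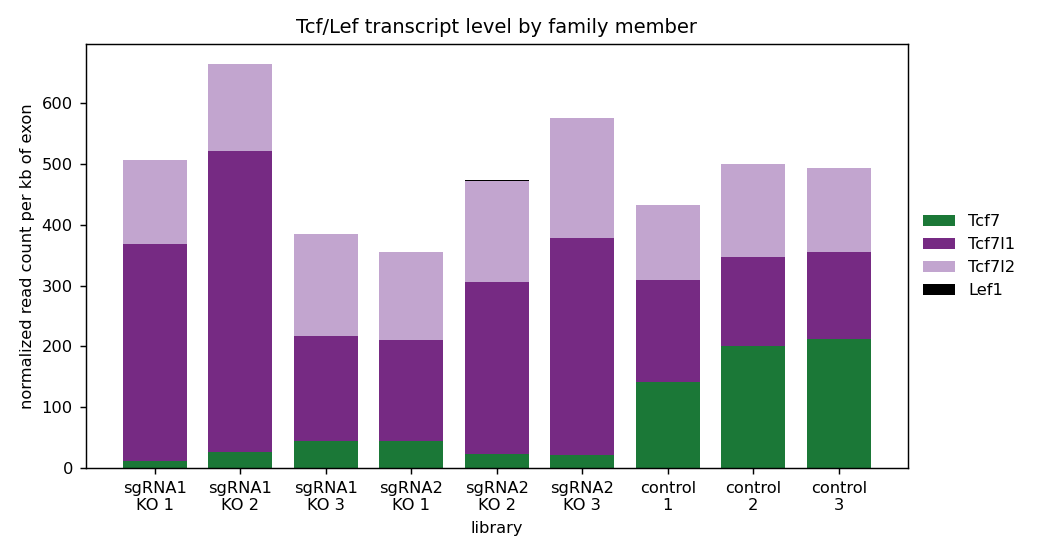
Level of each Tcf/Lef gene per library, as normalized read count per kb of annotated exon (vertical axis, from 0), stacked by gene. Tcf7 held 2.26% to 12.7% of the bar in KO libraries and 32.7% to 43.0% in controls.

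Ctnnb1, the beta-catenin gene, was the most abundant member, at 12593 normalized read counts per kb of exon in KO and 11328 in control. It had 70769, 72954 and 61892 normalized read counts in the sgRNA1 KO libraries, with 60195, 67860 and 58623 in the sgRNA2 KO libraries, against 59907, 58035 and 58510 in control. Of the KO libraries, 5 lay above all controls, by little, and sgRNA2 KO replicate 3 lay within their range. Limma put the log2 fold change at 0.15 with an SE of 0.10 and an adjusted p of 0.267, which did not pass. Without adjustment, p was 0.179 in limma and 0.0476 in the exact permutation test. Ctnnb1 (chromosome 9, 120929216 to 120960507) shares exon sequence on the opposite strand with Ulk4, which had a mean of 290 in KO and 870 in control. RNA levels do not measure the amount of stabilised or nuclear beta-catenin protein.

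Of the feedback genes, the pair that passed upward was Nkd1 and Notum. Nkd1 encodes naked cuticle 1, which binds Dishevelled and dampens the signal. It had 1995, 1685 and 3109 normalized read counts in the sgRNA1 KO libraries, with 3493, 2466 and 2577 in the sgRNA2 KO libraries, against 1295, 1057 and 1028 in control. All 6 KO libraries lay above all controls, and the highest values were those of the 2 KO libraries nearest the controls. The means were 2554 ± 673 in KO (SD, n = 6) and 1127 ± 147 in control (SD, n = 3), a ratio of 2.27, with a log2 fold change of 1.14 (SE 0.22, adjusted p = 0.00468 in limma) and an exact permutation p of 0.0238. Nkd1 lies on chromosome 8 of mm10 from 88521354 to 88594884.

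Notum encodes a secreted enzyme that removes the lipid Wnt proteins need for receptor binding. It had 18, 6 and 9 counts in the sgRNA1 KO libraries, with 13, 24 and 15 in the sgRNA2 KO libraries, against 2, 3 and 3 in control. The ratio of the group means was 5.31, with a 95% Clopper-Pearson interval from 2.58 to 12.7 that covers counting error only. In limma the change, understated by the added 1, was 1.94 on the log2 scale (SE 0.40, adjusted p = 0.00598). Notum entered this test only through its KO values, so the p is a description and no support for a change. No KO library overlapped the controls, but even the highest value, 24, is far below every value of Axin2, Nkd1 and Znrf3. Per kb of exon, Notum averaged 5.88 in KO and 1.11 in control. It lies on chromosome 11 from 120653788 to 120661175, and its exons overlap those of Notumos and Myadml2os on the opposite strand.

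Axin2, a scaffold of the complex that destroys beta-catenin and the most used readout of the pathway, did not pass. It had 3251, 2343 and 2688 normalized read counts in the sgRNA1 KO libraries, with 2837, 2178 and 4524 in the sgRNA2 KO libraries, against 2646, 2742 and 2789 in control. The KO libraries spread to both sides of the controls, with 3 above all controls and 2 below all of them. The means were 2970 ± 850 in KO (SD, n = 6) and 2726 ± 72.9 in control (SD, n = 3), and limma gave a difference of 0.08 on the log2 scale (SE 0.21, adjusted p = 0.774; exact permutation p = 0.857). Without sgRNA2 KO replicate 3 it was -0.05 (adjusted p = 0.769). Axin2 lies on chromosome 11 from 108920349 to 108950783, and its exons overlap those of Gm11670 on the opposite strand, with at most 15 counts in any library.

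Znrf3 and Rnf43 encode related membrane ubiquitin ligases that remove Frizzled receptors from the cell surface. Znrf3 had 2439, 3450 and 3757 normalized read counts in the sgRNA1 KO libraries, with 4500, 3826 and 5407 in the sgRNA2 KO libraries, against 2709, 2747 and 2708 in control. All KO libraries but sgRNA1 KO replicate 1 were above the controls, and that library was below them. The means were 3897 ± 999 in KO (SD, n = 6) and 2721 ± 22.2 in control (SD, n = 3). Limma put the log2 fold change at 0.48 with an SE of 0.21. Its adjusted p of 0.0941 did not pass (exact permutation p = 0.0952, not adjusted). Without sgRNA1 KO replicate 1 the log2 fold change was 0.60, with an adjusted p of 0.0166 in limma. That library holds the lowest Znrf3 value of the KO groups, so a larger difference without it follows from the choice.

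Rnf43 had 975, 739 and 225 normalized read counts in the sgRNA1 KO libraries, with 255, 523 and 187 in the sgRNA2 KO libraries, against 214, 154 and 190 in control. It was well above the controls in 3 libraries, sgRNA1 KO replicates 1 and 2 and sgRNA2 KO replicate 2, and near or within the control range in the others. The means were 484 ± 321 in KO (SD, n = 6) and 186 ± 30.2 in control (SD, n = 3). Limma put the log2 fold change at 1.11 with an SE of 0.52. Its adjusted p of 0.110 did not pass (exact permutation p = 0.0714, not adjusted). Without the 2 libraries nearest the controls, which are both low in Rnf43, the log2 fold change was 1.48 with an adjusted p of 0.0460. Both lie on chromosome 11, Znrf3 from 5276324 to 5444847 and Rnf43 from 87662722 to 87735539. Per kb of exon, Znrf3 averaged 494 in KO and 345 in control, and Rnf43 averaged 73.8 in KO and 28.4 in control.

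The feedback genes thus did not follow 1 order over the KO libraries. Nkd1 was highest in the 2 libraries nearest the controls, Rnf43 in sgRNA1 KO replicates 1 and 2, and Axin2 and Znrf3 in sgRNA2 KO replicate 3. The summed level of 10 proliferation markers was 29444, 23125 and 102444 in the sgRNA1 KO libraries, with 101864, 47122 and 69425 in the sgRNA2 KO libraries, against 154357 to 162520 in control. Of the 10, 7 fell, against 20.2% of all tested genes. The 3 libraries with high Rnf43 were the 3 with the lowest proliferation sum. Astrocyte markers summed to 333261, 306795 and 166944 in the sgRNA1 KO libraries, with 170962, 233779 and 330459 in the sgRNA2 KO libraries, against 107935 to 116395 in control. Of the 8, 4 rose (Slc1a2, Glul, S100b and Aldoc), against 19.1% of all tested genes. Aqp4, Slc1a3, Gja1 and Aldh1l1 did not pass, and Aldh1l1 stood at 2191 to 35433 in KO libraries and 8383 to 9644 in controls. Aldoc, on chromosome 11, was the highest of them in every KO library. The part of either set of markers in the values of Rnf43 and Tcf7l1 was not tested.

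**Figure D3:**
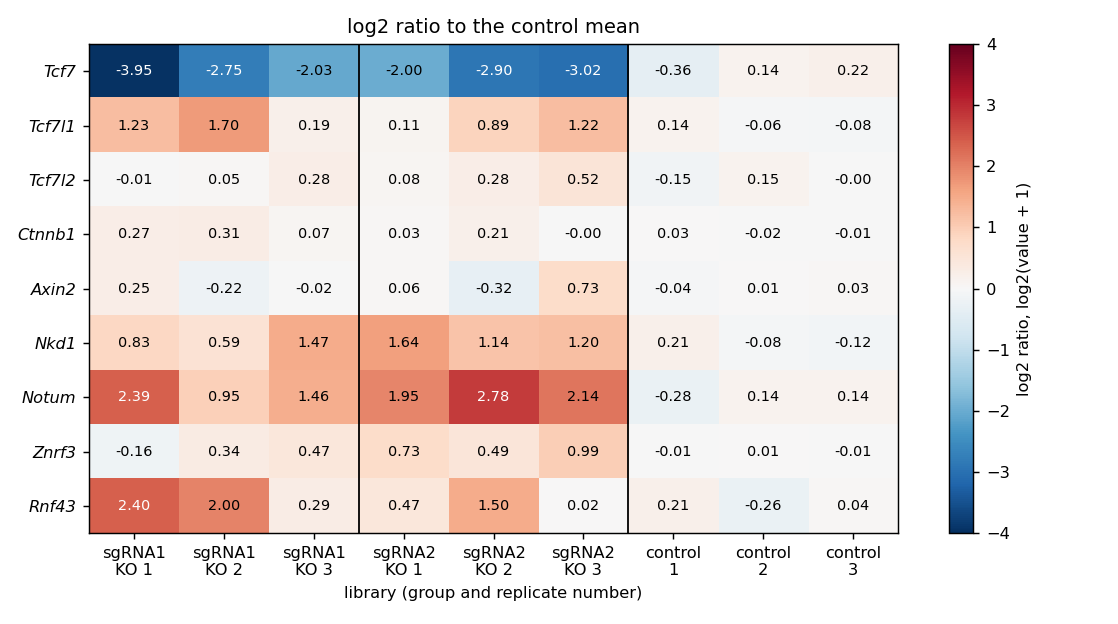
Log2 ratio to the control mean of log2(value + 1), for the 9 members tested (rows) in each library (columns), blue below and red above the control mean. Tcf7 was below the control mean in all 6 KO libraries, at -3.95 in sgRNA1 KO replicate 1, whereas Nkd1 was above it in all 6, at 0.59 to 1.64.

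Of the 10 members, 5 lie on chromosome 11 (Tcf7, Axin2, Notum, Znrf3 and Rnf43), so the level of that chromosome was examined. In sgRNA2 KO replicate 3, the median log2 ratio to the control mean over its 1233 tested genes was 0.47, whereas the medians of the other chromosomes in that library ran from -0.15 to 0.12. In the other 5 KO libraries the chromosome 11 median was between -0.13 and 0.01. The highest values of Axin2 (4524) and Znrf3 (5407) were in this library. Against the chromosome median of the library, the log2 ratio of Axin2 there was 0.26 instead of 0.73, and that of Znrf3 was 0.52 instead of 0.99. Rnf43, at a log2 ratio of 0.02 there, was at -0.45 against the chromosome median. With each gene taken relative to its chromosome, Znrf3 passed the threshold in limma (log2 fold change 0.46, adjusted p = 0.0428).

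**Figure D4:**
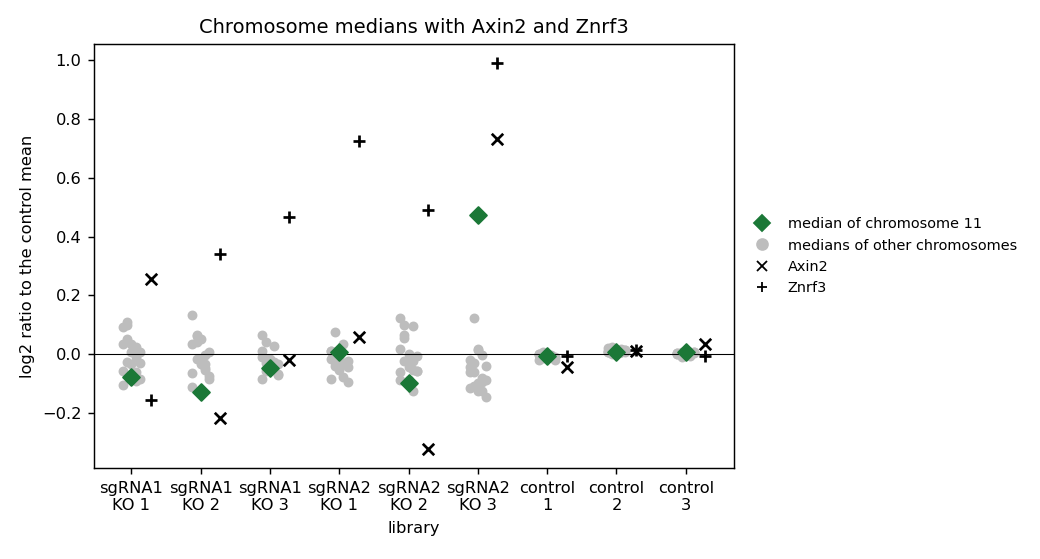
Median log2 ratio to the control mean over the tested genes of each chromosome (gray points; green diamond for chromosome 11) in each library, with the log2 ratios of Axin2 and Znrf3. Chromosome 11 stood at 0.47 in sgRNA2 KO replicate 3, apart from the other chromosomes.

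Both guide groups were set against 1 set of 3 controls, so these comparisons are not independent. Notum, counted for both guides, entered the test only through its KO values, so its calls are no support. With sgRNA1, 3 of 9 members passed in limma, Nkd1 and Notum upward and Tcf7 downward, against 36% of all tested genes (17.1% upward and 18.9% downward). The log2 fold changes were 0.96 for Nkd1 (SE 0.24, adjusted p = 0.0181), 1.60 for Notum (SE 0.43, adjusted p = 0.0229) and -2.91 for Tcf7 (SE 0.48, adjusted p = 0.00587). With sgRNA2, 4 of 9 passed, against 22.1% of all tested genes (11.4% upward and 10.7% downward). The fourth was Znrf3, with a log2 fold change of 0.74 (SE 0.19, adjusted p = 0.0261), beside Nkd1 at 1.33 (SE 0.24, adjusted p = 0.00916), Notum at 2.29 (SE 0.43, adjusted p = 0.0106) and Tcf7 at -2.64 (SE 0.48, adjusted p = 0.00938).

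Some of these calls changed when 1 library was left out. Without 1 of the controls, the count of all genes called fell too. It went from 5699 to between 1267 and 2811 for sgRNA1, and from 3505 to between 643 and 1320 for sgRNA2. Calls lost without a control are thus not particular to the members. In sgRNA1 KO against control, Nkd1 lost its call without sgRNA1 KO replicate 1 (adjusted p = 0.0507) and without either of control replicates 2 and 3 (0.0712 and 0.0693). Notum missed without sgRNA1 KO replicate 1 (adjusted p = 0.0791) and without control replicate 1, 2 or 3 (0.0725, 0.0702 and 0.0665). Without sgRNA1 KO replicate 3, Tcf7l1 (adjusted p = 0.00478) and Rnf43 (0.00259) passed, and Rnf43 also passed without sgRNA2 KO replicate 2 (0.0408). In sgRNA2 KO against control, Znrf3 missed without sgRNA2 KO replicate 3 (adjusted p = 0.0580) and without control replicate 1, 2 or 3 (0.0758, 0.0944 and 0.0931), and Tcf7 without control replicate 2 (0.0503). Without both KO libraries nearest the controls, Ctnnb1 also passed for sgRNA1 (log2 0.29, adjusted p = 0.0433), and Tcf7l1 for both guides (adjusted p = 0.00104 for sgRNA1 and 0.00553 for sgRNA2).

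The guides were compared directly in the same limma fit. No member passed, and 0 of the 15827 genes (0%) did, with 474 genes and 1 member at an unadjusted p under 0.05. The member was Znrf3, with means of 3215 ± 690 in sgRNA1 KO and 4578 ± 793 in sgRNA2 KO (SD, n = 3 each) and a log2 difference of -0.52 (SE 0.19, adjusted p = 0.778). Rnf43 had means of 646 ± 383 in sgRNA1 KO and 322 ± 178 in sgRNA2 KO, a log2 difference of 0.90 (SE 0.55, adjusted p = 0.778). The spread between libraries of 1 guide was large for these genes, and a p that misses the threshold does not show that the guides acted alike.

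Upstream sequence was taken from RefSeq promoter windows of GRCm38.p6, each 250 bases before and 50 after a start, which matched 8 of the 10 members with 15 windows. The windows were searched on both strands for the Tcf/Lef motif forms CTTTGAT and CTTTGAA and for the core CTTTG, which both of them contain. In 6 of the 15 windows the part before the start overlapped annotated exons. The Tcf7 windows are counted among the 15. The first of them holds an ATG with a reading frame open to the end of the window, as coding sequence of a longer isoform would. The isoform in use was not tested. Neither 7-letter form was in any member window, and 3.73% and 5.14% of all 32851 windows held them. At shares this low, 15 windows are too few for an absence to tell the members from other genes. No other 7-letter form was searched. The core was in 7 of the 15 windows, all of them of Tcf7l1, Tcf7l2 or Lef1, and in 53.9% of all windows, so it is common. The 250 bases before the start are shown for 2 feedback genes with different results, Axin2, which did not pass, and Nkd1, which rose. The capitals mark CG dinucleotides, of which Axin2 had 24 and Nkd1 had 6, against a median of 6 over all windows, with 69.2% and 58.4% of bases being G or C (median 52.4%).
Axin2, chr11:108920099-108920348, plus strand: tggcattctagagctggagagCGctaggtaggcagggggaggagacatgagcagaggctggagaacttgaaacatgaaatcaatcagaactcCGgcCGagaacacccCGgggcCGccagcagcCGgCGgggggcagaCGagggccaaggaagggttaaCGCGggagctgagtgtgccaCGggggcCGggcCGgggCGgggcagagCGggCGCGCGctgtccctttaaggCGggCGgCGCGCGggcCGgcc
Nkd1, chr8:88527383-88527632, plus strand: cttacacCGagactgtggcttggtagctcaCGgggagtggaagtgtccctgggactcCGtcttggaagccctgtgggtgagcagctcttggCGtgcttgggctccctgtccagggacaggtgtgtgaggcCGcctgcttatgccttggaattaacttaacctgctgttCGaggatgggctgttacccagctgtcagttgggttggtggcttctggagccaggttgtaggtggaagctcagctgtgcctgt
Neither stretch overlapped an annotated exon in GENCODE M21. The Nkd1 start lies inside the gene as that annotation draws it, and no data here show which start was used.

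The other genes of the pathway were taken by role from 7 lists with 102 genes, of which 79 were tested. In KO against control, 12 of these rose and 9 fell, 26.6% in all, below the 39.3% of all tested genes that passed (19.1% upward and 20.2% downward). Their median log2 fold change was 0.09. The lists are short, and the counts of each are to be read against these shares. Among Wnt ligands 1 of 9 rose. This was Wnt6, with 22 to 101 counts in 5 KO libraries and 17 in the other, against 1 to 4 in control (log2 3.45, SE 0.55, adjusted p = 0.00220 in limma); it passed the filter on low values only through its KO libraries, was below the level set for named genes and is named after its values were seen. The most abundant ligand genes were Wnt7b, with means of 13653 ± 3830 in KO (SD, n = 6) and 12401 ± 959 in control (SD, n = 3; adjusted p = 0.761 in limma), and Wnt5a, with 6387 ± 1598 and 4959 ± 165 (adjusted p = 0.291). Of the genes for ligand secretion and R-spondins, 2 of 3 rose. They were Porcn, the acyltransferase that lipidates Wnt proteins (390 to 976 in KO libraries and 193 to 269 in controls, log2 1.41, adjusted p = 0.00710), and Wls, which carries them to the surface (7858 ± 2209 and 4498 ± 69.4, log2 0.75, adjusted p = 0.0260). Wls lost its call without sgRNA2 KO replicate 2 (adjusted p = 0.0527) and without any 1 of the controls (0.0785 to 0.0847).

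Receptor genes moved both ways, with 2 of 18 higher and 2 lower. Fzd9 had means of 2769 ± 591 in KO (SD, n = 6) and 1095 ± 193 in control (SD, n = 3), with a log2 fold change of 1.32 (adjusted p = 0.00172 in limma), and Fzd7 had 3681 ± 528 and 2093 ± 164, with 0.80 (adjusted p = 0.00267). Ror2, a receptor for noncanonical ligands such as Wnt5a, had 96.3 ± 49.0 in KO and 323 ± 14.6 in control (log2 -1.91, adjusted p = 0.00829). Fzd1 had 1204 ± 561 in KO and 2926 ± 331 in control (log2 -1.41, adjusted p = 0.0135), and missed without control replicate 2 (0.0614) or 3 (0.0555).

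Of the secreted and surface antagonists, 3 of 8 rose and 0 fell, against 19.1% and 20.2% of all tested genes, and 1 of the 3 calls, that of Sfrp4, did not hold under most alternatives. Kremen1, whose product takes up Lrp5 and Lrp6 together with Dickkopf proteins, stood at 21956 to 34066 in KO libraries and 12576 to 13682 in controls (log2 1.13, SE 0.15, adjusted p = 0.00122 in limma). Wif1, a secreted protein that binds Wnt ligands, stood at 205 to 778 and 103 to 132 (log2 2.0, SE 0.49, adjusted p = 0.0121), and missed without control replicate 3 (0.0552). The third was Sfrp4, at 27 to 44 in KO libraries and 20 to 27 in controls (adjusted p = 0.0446), named after its values were seen; its groups touched at 27 counts and the call was lost when any library but sgRNA1 KO replicate 1 was left out.

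Of the Dishevelled and destruction complex genes, 2 of 16 rose and 1 fell. Gsk3b, the kinase that marks beta-catenin for breakdown, had means of 16186 ± 3317 in KO (SD, n = 6) and 10249 ± 71.8 in control (SD, n = 3), with a log2 fold change of 0.63 (adjusted p = 0.0151 in limma), and missed without control replicate 1, 2 or 3 (0.0503, 0.0618 and 0.0595). Apc2 had 2312 ± 685 in KO and 1087 ± 124 in control (log2 1.04, adjusted p = 0.00842). Amer1 had 1429 ± 198 in KO and 1820 ± 18.0 in control (log2 -0.36, adjusted p = 0.0473) and missed without sgRNA1 KO replicate 1 (0.0787) or 2 (0.0738), sgRNA2 KO replicate 2 (0.0894) or control replicate 1, 2 or 3 (0.123, 0.131 and 0.141).

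Of the nuclear cofactors, 2 of 15 rose and 2 fell. Tle2, a Groucho-type corepressor gene, had means of 2109 ± 444 in KO (SD, n = 6) and 1010 ± 95.3 in control (SD, n = 3), with a log2 fold change of 1.04 (adjusted p = 0.00316 in limma), and Ctbp2, another corepressor gene, had 2038 ± 136 and 3666 ± 163, with -0.85 (adjusted p = 0.000601). The Pygopus genes, whose products link beta-catenin to chromatin, went opposite ways. Pygo1 had 1458 ± 568 in KO and 729 ± 31.8 in control (log2 0.90, adjusted p = 0.0437), and Pygo2 had 2401 ± 463 and 3603 ± 173 (log2 -0.61, adjusted p = 0.0168). Pygo1 missed without sgRNA1 KO replicate 1 (0.0714) or 2 (0.0664), sgRNA2 KO replicate 2 (0.0816) or 3 (0.0510) or any control (0.0995 to 0.128), and Pygo2 without control replicate 2 (0.0705) or 3 (0.0704).

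Other genes known as Wnt targets in some tissues had 0 of 10 risen and 4 fallen, and the median of the list was 0.18. Ccnd1, the cyclin D1 gene, had 2178, 5044 and 17091 normalized read counts in the sgRNA1 KO libraries, with 13600, 4881 and 8032 in the sgRNA2 KO libraries, against 49394, 70271 and 66375 in control (log2 -3.17, SE 0.56, adjusted p = 0.00333 in limma). Cd44, a hyaluronan receptor gene, stood at 1375 to 2939 in KO libraries and 5528 to 6061 in controls (log2 -1.51, SE 0.20, adjusted p = 0.00118). Myc (log2 -0.85, adjusted p = 0.0285) and Tnfrsf19 (log2 -1.42, adjusted p = 0.0198), which were named after their values were seen, missed without any 1 of the controls (adjusted p from 0.0513 to 0.110), and Myc also without both KO libraries nearest the controls (0.0641). These genes are also controlled by other pathways.

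**Figure D5:**
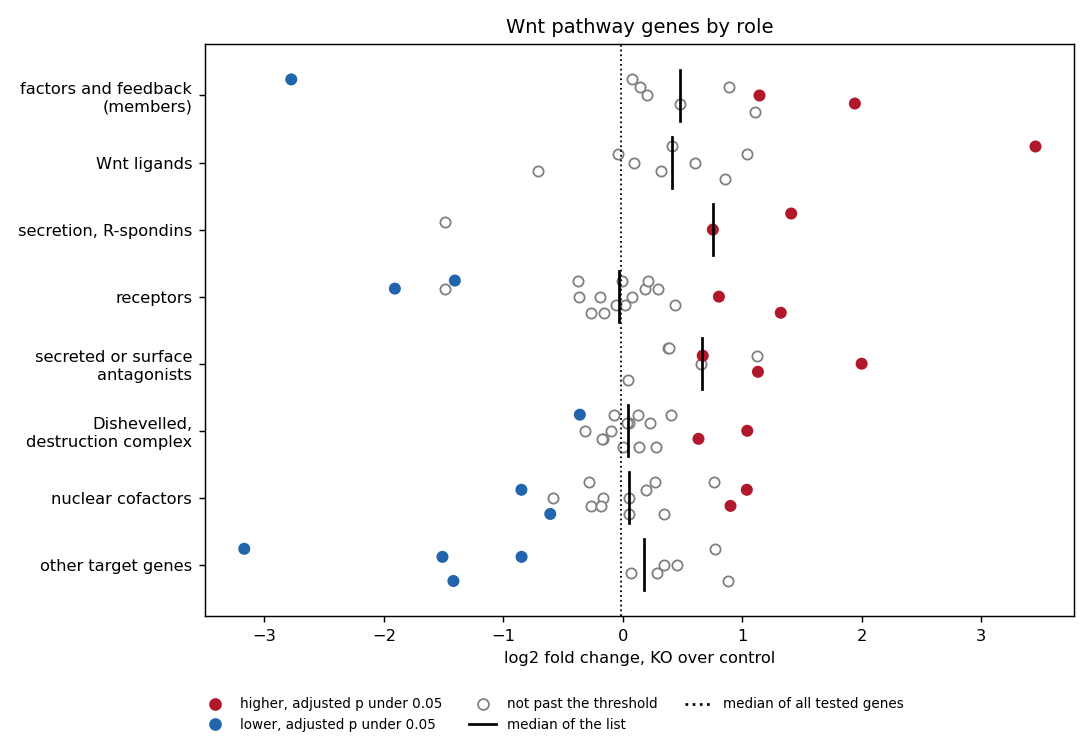
Log2 fold change of KO over control (horizontal axis) for the 9 members tested and the 79 other Wnt pathway genes tested, by role, with 1 point per gene, filled where the adjusted p in limma was under 0.05. Black bars are list medians and the dotted line is the median of all tested genes (-0.01).

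Genes with the pattern most like a member were found by the root mean square difference of log2 ratios to the control mean over the 6 KO libraries, among 12726 other genes with a mean of at least 50. Nearest to Tcf7 were Apln (0.38), Tmod1 (0.39) and 9930014A18Rik (0.46). Nearest to Nkd1 were AA986860 (0.14), Kremen1 (0.16) and Slc25a18 (0.26). Nearest to Tcf7l1 were Gm10125 (0.15), Phf21b (0.18) and Eps15 (0.20), and nearest to Rnf43 were Gmpr (0.15), Igdcc3 (0.20) and Ank (0.20). Mt3 (0.03), Btrc (0.04) and Ift52 (0.05) were nearest to Ctnnb1. Btrc, which encodes the ubiquitin ligase subunit that recognises beta-catenin, changed as little as Ctnnb1 (log2 0.14, adjusted p = 0.320 in limma). Genes that change little are close by this measure, and nearness does not show shared control. For Axin2 the nearest were 4632415L05Rik, Lsm10 and Ubald2 (each 0.15), and for Znrf3 Mrgpre (0.17), Pde4d (0.18) and Gchfr (0.19).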

How the data were processed

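The submitters' processing notes name build mm10 and, as tools, DESeq2, featureCounts and STAR 2.4.1d; the annotation release and strand setting are not given in the sources used here. For each gene the deposited table gives a score in every library, a normalized read count that the authors scaled by library and rounded to whole numbers, as inferred from the values. Raw counts were not used, so no count model was fitted. Values were transformed as log2(value + 1), which understates changes of low genes. Genes averaging 10 or more over the libraries, 15827 in number, were tested two-sided in R 4.3.3 by limma 3.58.1, letting the variance follow the mean, and p-values were adjusted by Benjamini-Hochberg over all genes at 0.05. KO against control used 6 and 3 libraries; the guides were compared in 1 fit of 3 groups. Single members were also tested by exact permutation over 84 divisions, with 10 members tested and no adjustment over them (smallest p 0.0238). The fits were tested on simulated data. Positions and exon lengths came from GENCODE M21, matching 21817 of 21899 genes. Members and lists were chosen with earlier results of these data known. From each Wnt list, up to 2 genes that rose and 2 that fell most with a mean of at least 50 were named, or the 2 most abundant. Python 3.11.15 with scipy 1.17.1 and matplotlib 3.10.9 was used. Alternatives were pseudocounts of 0.5 and 5, no filter, a mean of at least 50, a replicate block, variance weights per group, chromosome centring, rescaling by median of ratios, quantile normalization, only the 6 libraries compared, each library left out, and the 2 KO libraries nearest the controls left out. For shares of the Tcf/Lef level, values not per length and left-out libraries were tried, chosen after seeing the data. 1 cell type marker and the genes nearest to Tcf7l2 are not reported here.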

Additional observations from a re-analysis of the deposited data

How the results depend on the processing

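In KO against control, Tcf7 and Nkd1 kept their direction and passed in all 19 alternatives run, with log2 fold changes of -3.16 to -2.54 and 0.94 to 1.27. Notum ran from 1.25 to 2.14 in the 18 that gave it a value. It entered the test only through its KO values, so its call is no support, and the filter at a mean of 50 left it out. Members called numbered 3 in the fit as reported, 6 with variance weights per group and 5 without both KO libraries nearest the controls. For sgRNA1 the same alternatives gave 5 and 6 against 3. Variance weights also raised the count of all genes called in KO against control, from 6227 to 8849 of 15827. The larger member count with these weights is thus no result about the members. The counts without both KO libraries nearest the controls follow from the choice of those libraries. They are a description and no result about the members either. Left-out libraries gave 3 to 4 members in KO against control, 1 to 5 for sgRNA1, 2 to 4 for sgRNA2 and 0 between the guides. The count of all genes called, 6227 in KO against control, ran from 2777 to 7597 with 1 library left out (3904, 2777 and 3006 without control replicates 1, 2 and 3), from 1267 to 7900 for sgRNA1, from 643 to 5480 for sgRNA2 and from 0 to 182 between the guides. Without both KO libraries nearest the controls, 6243 genes were called for sgRNA2 and 30 between the guides. With variance weights, Tcf7l1 (adjusted p = 0.00613), Znrf3 (0.0120) and Rnf43 (0.0204) also passed, and Znrf3 also with quantile normalization (0.0344). The cause of these differences was not tested.

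Signs turned for members with small differences and for Wnt7b. With 1 library left out, Axin2 ran from -0.050 (without sgRNA2 KO replicate 3) to 0.16 in KO against control, from -0.12 (without sgRNA1 KO replicate 1; -0.016 without control replicate 1) to 0.12 for sgRNA1, and from -0.13 (without sgRNA2 KO replicate 3) to 0.39 for sgRNA2. Between the guides Axin2 ran from -0.39 to 0.14 (without sgRNA2 KO replicate 3), and it was 0.062 with chromosome centring. Between the guides Tcf7 ran from -0.71 to 0.25 (without sgRNA1 KO replicate 1; 0.05 without sgRNA2 KO replicate 1), and Tcf7l1 from -0.033 (without sgRNA1 KO replicate 2; -0.02 without sgRNA2 KO replicate 1) to 0.72. Wnt7b ran from -0.0060 (without sgRNA1 KO replicate 1) to 0.20. Of the recomputed values of named Wnt genes other than the members, 385 had the direction and side of the threshold reported, 48 no longer passed, 1 passed anew and 1 changed sign. Shares of values not taken per length were 3.08% in KO and 21.0% in control for Tcf7, 43.4% and 26.3% for Tcf7l1, and 53.4% and 52.6% for Tcf7l2, which then led in both groups.

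Libraries of equal number share only that number: the correlation of their deviations from the group means ran from -0.345 to 0.332. With the replicate block, 3 members passed in KO against control, 4 for sgRNA1 (Rnf43 added, adjusted p = 0.0395), 4 for sgRNA2 and 0 between the guides. Lef1 and Notum had few counts, which limits the precision of their values.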
